A study of Mus musculus with 20 samples.

Results

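The genes described here are 10 immediate early genes that do not belong to the AP-1 family: Egr1, Egr2, Egr3, Ier2, Ier3, Btg2, Zfp36, Nr4a1, Socs3 and Dusp1. They were taken by symbol from a table of raw read counts with 25719 genes, in which all 10 were found, and all 10 were among the 12424 genes that passed a filter on low counts. RNA was sequenced from keratinocytes, the main cell type of the epidermis, isolated from the skin of the ear and back of 20 mice and enriched by cell sorting, with 2 M cells (M, 1e+06) per sample. The study asked how a loss of glucocorticoid synthesis in the skin differs when it is induced locally or systemically.

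The mice formed 4 groups of 5. Conditional knockout (cKO) mice were K14-CreERTam x Cyp11b1 L2/L2: both Cyp11b1 alleles are floxed, and a Cre recombinase that tamoxifen switches on is driven by the K14 promoter, that is, in cells that express Krt14. Cyp11b1 encodes the enzyme for the last step of corticosterone synthesis. Control mice were Cre-negative littermates with the same floxed Cyp11b1 L2/L2 alleles, so no group had unmodified alleles. All mice, controls included, received tamoxifen on 5 consecutive days and were sampled on day 6. In the topical groups the back was dry-shaved and tamoxifen in ethanol was put on the ear (20 µl) and back (100 µl). In the systemic groups 100 µl of 10 mg/ml tamoxifen in an oil and ethanol solution was injected into the peritoneum. Route of treatment therefore includes shaving, solvent and dose, which cannot be told apart, and the age of the mice was not given in the sources used here.

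Immediate early genes are genes whose transcription starts within minutes of a stimulus without new protein synthesis, mostly through factors already present in the cell, such as serum response factor (SRF) with its ETS partners and CREB, which are switched on by MAP kinases and calcium or cAMP signals. In epidermis they respond to growth factors, wounding, ultraviolet light and mechanical stress, and they also respond when tissue is taken apart into single cells. All libraries came from dissociated and sorted cells, so every level given here includes any such response, whose part was not tested.

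The products fall into 3 kinds. Egr1, Egr2 and Egr3 are zinc-finger transcription factors, Nr4a1 is an orphan nuclear receptor and Ier2 is a nuclear protein linked to transcription. Btg2 is an antiproliferative protein that recruits mRNA deadenylases, and Zfp36 (tristetraprolin) binds AU-rich elements of cytokine mRNAs and speeds their decay. Dusp1 is a phosphatase that switches MAP kinases off, Socs3 blocks JAK kinases below cytokine receptors of the gp130 family, and Ier3 is a stress-response protein that acts on cell survival.

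Because SRF and CREB are the textbook inputs to these genes, stretches before the transcription start that hold their motifs are shown for 5 members. They are from RefSeq promoter windows on GRCm38.p6, which run from 250 bases before to 50 bases after an annotated start, and 7 of the 10 members were matched by symbol in that table. Capitals mark a CArG box, the SRF motif, in Egr2 and Zfp36, a full cAMP response element (CRE, TGACGTCA) in Btg2 and Dusp1, and the CRE core TGACG, read here on the opposite strand as CGTCA, in Nr4a1. Each is printed 5′ to 3′ on the strand of its gene.
Egr2, chr10:67537619-67537868, plus strand: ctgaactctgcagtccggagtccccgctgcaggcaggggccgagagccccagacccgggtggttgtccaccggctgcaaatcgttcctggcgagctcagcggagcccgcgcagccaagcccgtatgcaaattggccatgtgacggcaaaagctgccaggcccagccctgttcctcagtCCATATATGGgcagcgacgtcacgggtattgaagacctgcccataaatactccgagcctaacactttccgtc
Zfp36, chr7:28379267-28379296, minus strand: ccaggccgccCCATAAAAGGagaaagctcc
Btg2, chr1:134079156-134079405, minus strand: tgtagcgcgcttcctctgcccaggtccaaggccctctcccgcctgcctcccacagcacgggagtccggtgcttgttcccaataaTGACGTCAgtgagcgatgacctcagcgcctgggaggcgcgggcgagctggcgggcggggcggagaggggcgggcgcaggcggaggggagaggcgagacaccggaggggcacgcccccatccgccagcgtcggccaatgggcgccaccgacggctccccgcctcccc
Dusp1, chr17:26508520-26508722, minus strand: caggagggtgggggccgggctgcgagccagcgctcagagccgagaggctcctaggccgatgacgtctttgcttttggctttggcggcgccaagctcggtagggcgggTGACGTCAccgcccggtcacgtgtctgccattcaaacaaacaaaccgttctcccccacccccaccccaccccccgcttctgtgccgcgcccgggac
Nr4a1, chr15:101266596-101266845, plus strand: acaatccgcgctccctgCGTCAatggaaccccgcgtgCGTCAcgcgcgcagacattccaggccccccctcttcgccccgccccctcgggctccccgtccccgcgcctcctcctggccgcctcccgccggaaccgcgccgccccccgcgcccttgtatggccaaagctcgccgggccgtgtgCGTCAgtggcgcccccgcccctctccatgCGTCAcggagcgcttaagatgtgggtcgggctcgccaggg

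In the GENCODE M21 annotation of the same assembly, the Btg2 stretch lay upstream of the gene, and those of Egr2, Dusp1 and Nr4a1 lay in introns of longer transcripts of the same genes. The 30 bases of Zfp36 lay in the exon of a longer Zfp36 transcript and also in Gm44710 on the other strand. Counting the annotated start as 1, with no base 0, the CArG box ran from -72 to -63 in Egr2 and from -58 to -49 in Zfp36. The full CRE ran from -166 to -159 in Btg2 and from -143 to -136 in Dusp1. Nr4a1 held 4 CRE cores, beginning at -233, -213, -69 and -40.

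A CArG box was found in 1.63% of all 32851 promoter windows of the table and a full CRE in 1.79%, with both strands searched. The CRE core, which the full CRE contains on each strand, was present in 20.8% of windows and in 4 of the 7 members (Btg2, Dusp1, Egr2 and Nr4a1). A GC box (GGGCGG, found in 35.7% of windows) was present in at least 1 window of each of the 7 members, for Egr2 in windows other than the one printed. The EGR motif GCGTGGGCG (0.612% of windows), the AP-1 motif TGANTCA (7.81%), the STAT motif TTCCNGGAA (1.15%), the glucocorticoid response element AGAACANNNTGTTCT (0.00913%) and the TATA box TATAAA (13.6%) had no match in any window of the 7 members. A match is a description of letters only, and binding was not measured.

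**Figure D1:**
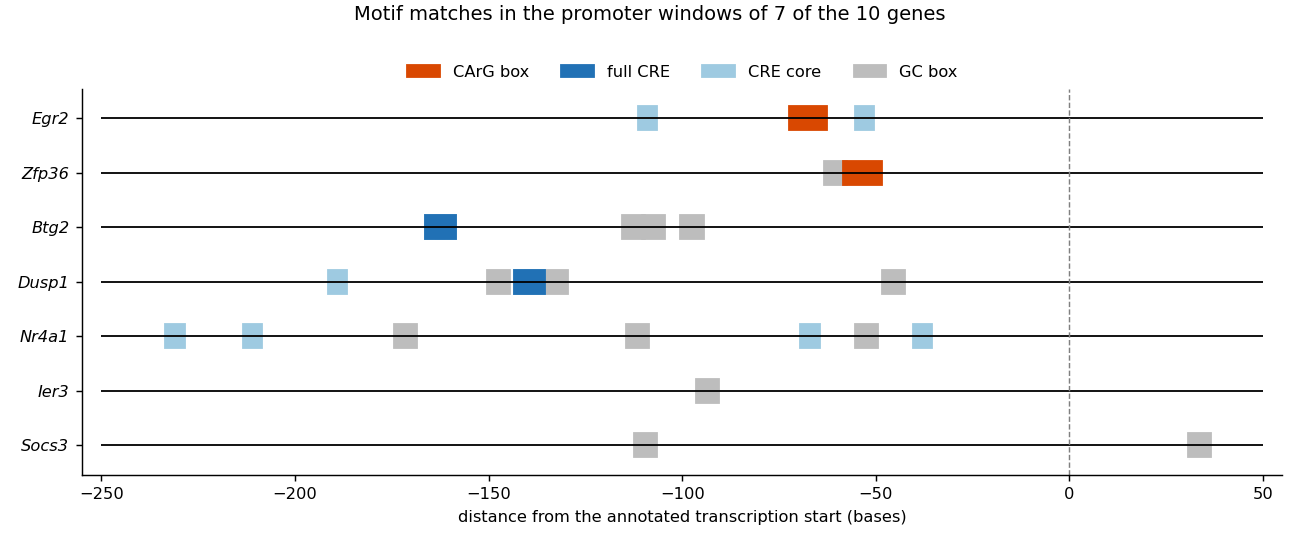
Matches to 4 motifs in 1 promoter window each of the 7 members found in the RefSeq table, plotted by distance in bases from the annotated start (dashed line); Egr2 is shown with the window printed. CArG boxes appear close to the start in Egr2 and Zfp36, full CREs farther from it in Btg2 and Dusp1, and 4 CRE cores in Nr4a1.

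Library totals ran from 11.6 to 50.1 M counts, and counts of a member in a library ran from 96.0 (Egr3) to 371589 (Dusp1). The spread between mice (CV of the level) was over 3 times the counting error (the inverse square root of the count) in 37 of the 40 pairs of gene and group. The 3 others were Egr3 in topical controls, where the CV of 6.76% was no larger than the counting error of 7.11%, Egr2 in topical cKO mice (5.19% beside 4.23%) and Egr3 in systemic controls (14.1% beside 5.26%). Levels are counts per M counts (CPM) on library sizes scaled with TMM factors, which ran from 0.781 to 1.52. The keratinocyte marker Krt14 averaged 44620.4 CPM, while the highest level of Ptprc (leukocytes) was 0.108 CPM, of Cd207 (Langerhans cells) 0.351 CPM, of Mlana (melanocytes) 0.243 CPM, of Pecam1 (endothelium) 2.45 CPM and of Col1a1 (fibroblasts) 4.49 CPM. Other markers on these lists were higher: summed over each list, the highest library had 31.5 CPM for 10 immune genes (Cd74 and H2-Aa passed the filter), 24.3 CPM for 6 fibroblast genes, 23.1 CPM for 6 melanocyte genes and 5.43 CPM for 5 endothelial genes. Of the sebaceous gland list (Scd1, Mc5r, Fasn, Elovl3 and Awat2), all 5 genes passed, with sums from 238 to 3376 CPM. Of these, Scd1 and Fasn are lipid-synthesis genes that other epidermal cells also express. The targeted gene, Cyp11b1, had 22 reads in all 20 libraries together, so its loss could not be checked from these counts. A set of transcripts stood apart: 12 predicted genes that resemble satellite repeats summed to over 50 CPM in all 5 systemic controls and in systemic cKO 2, and in none of the other 14 libraries. Their sums are given on library totals without TMM factors. In these bulk samples, fewer cells of a type and less RNA per cell cannot be told apart.

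Compared per kilobase of merged exon, Dusp1 was the highest of the 10 genes, at a mean of 2764 CPM per kb over the 20 libraries. Nr4a1 (1096), Btg2 (939) and Ier2 (912) followed, then Zfp36 (398) and Ier3 (355), then Egr1 (178) and Socs3 (170.0), all in CPM per kb. Egr2 at 14.8 and Egr3 at 3.56 CPM per kb were far below the rest. Dusp1 was above Nr4a1, Ier2 above Zfp36, Socs3 above Egr2, and Egr2 above Egr3 in 20 of 20 libraries. Neighbours elsewhere in this order did not separate as cleanly: Nr4a1 was above Btg2 in 14 libraries, Btg2 above Ier2 in 11, Zfp36 above Ier3 in 13, Ier3 above Egr1 in 18 and Egr1 above Socs3 in 12. The only exon overlap with another annotated gene was that of Zfp36 with the antisense gene Gm44710, over 125 bases (3.60% of the exon length of Zfp36); the strand setting of the counting is not given in the sources used here.

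**Figure D2:**
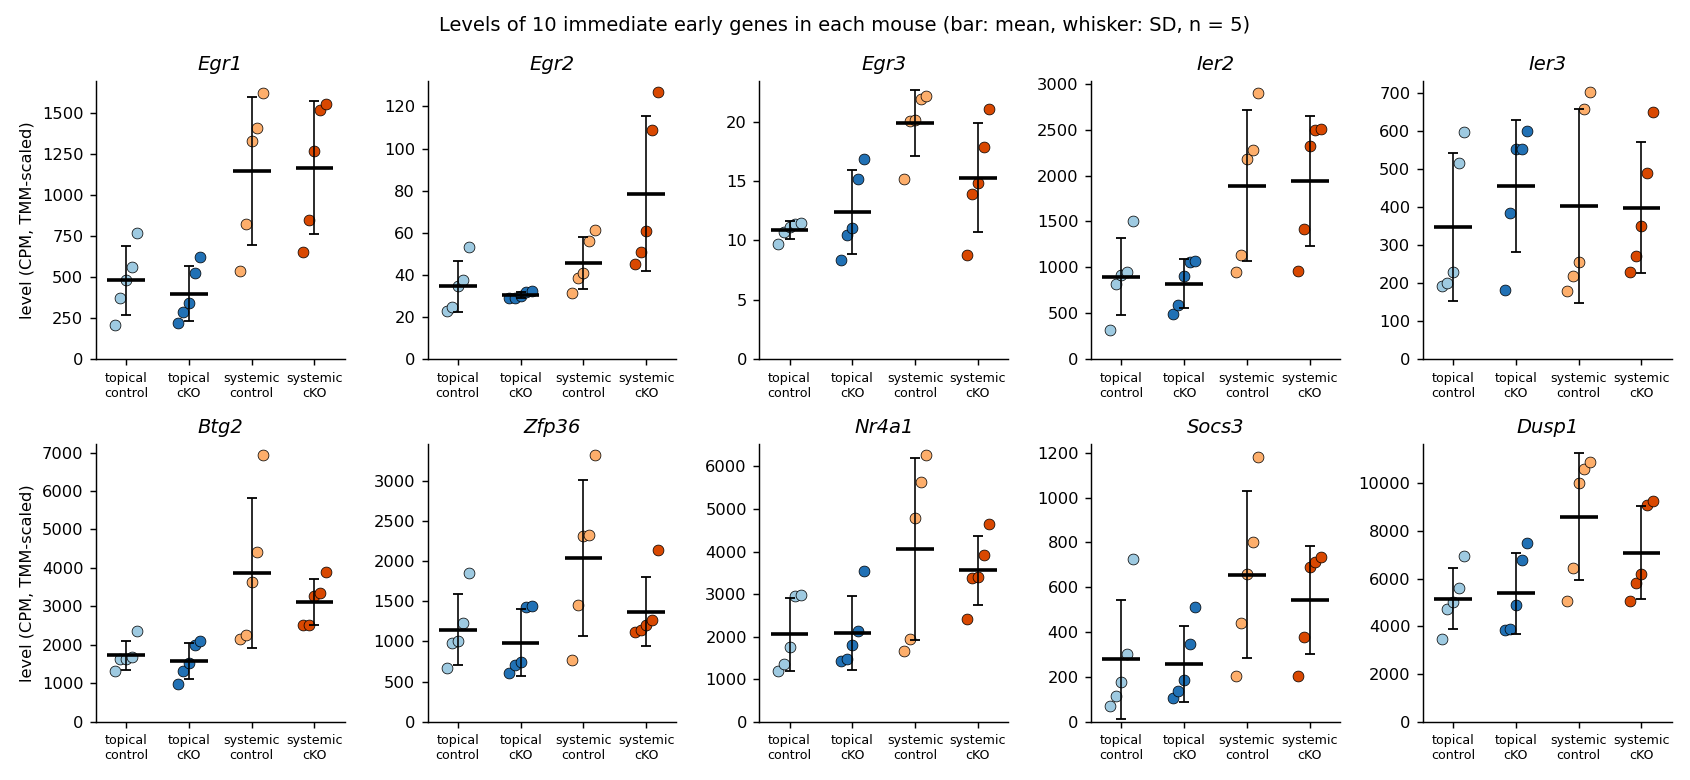
Level of each of the 10 genes in every mouse, in TMM-scaled CPM on linear axes that start at 0, by group; bars are means and whiskers SDs (n = 5). Systemic groups sit above topical groups for most genes, with wide spread inside each group, and Ier3 shows no such step.

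Topical cKO and topical control mice did not separate for any of the 10 genes. With edgeR's quasi-likelihood test over all 12424 genes and Benjamini-Hochberg adjustment, 0 of 10 members were called at an adjusted p under 0.05, against 0.129% of all genes tested; 0 members had an unadjusted p under 0.05 (5.66% of all genes did), and DESeq2 and limma voom also called 0. The log2 fold changes, cKO over control, ran from -0.26 in Egr1 to 0.39 in Ier3, with a median of -0.11 beside 0.020 over all genes. Egr1 stood at 563, 766, 210.1, 373 and 484 CPM in topical control mice 1, 3, 5, 6 and 7. In topical cKO mice 2, 3, 4, 5 and 7 it stood at 341, 288, 620.4, 221 and 527 CPM. The groups overlapped over most of their range, and Egr1 differed by -0.26 (SE 0.36, adjusted p = 0.997) on the log2 scale. The widest SE was that of Socs3, whose difference was -0.11 (SE 0.56, adjusted p = 0.997).

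Among injected mice, genotype also gave no call. Of the 10 members, 0 passed an adjusted p under 0.05 in edgeR's test, against 1.89% of all genes; 1, Egr2, had an unadjusted p under 0.05 (15.3% of all genes did), and DESeq2 and limma voom called 0. The median log2 fold change of the members was -0.23, beside -0.0045 over all genes. Egr2, a transcription factor best known from hindbrain segmentation and myelination, had the largest difference. It stood at 40.9, 38.6, 56.0, 61.3 and 31.3 CPM in systemic control mice 1, 3, 4, 5 and 6, and at 51.0, 60.7, 109, 45.3 and 127 CPM in systemic cKO mice 2, 4, 5, 6 and 7. Systemic cKO 5 and 7 lay above every control, and the other 3 cKO mice lay within the control range. The log2 difference was 0.79 (SE 0.27, adjusted p = 0.139). Zfp36 had the largest negative difference, -0.57 (SE 0.36, adjusted p = 0.483), and Egr3 followed with -0.39 (SE 0.20, adjusted p = 0.352). With the mitochondrial share of counts (percent) added to the model, Egr2 (0.90, adjusted p = 0.0385) and Egr3 (-0.54, adjusted p = 0.0381) were called by the same test, beside 10.6% of all genes. That percent ran from 1.87 to 6.42 in systemic controls and from 2.45 to 6.05 in systemic cKO, and this covariate was chosen after seeing the data. Over all 16 other settings, the Egr2 difference ran from 0.16 to 0.90 and that of Egr3 from -0.54 to -0.21. Satellite-like transcripts were over 50 CPM in 5 of 5 systemic controls and in 1 of 5 systemic cKO mice, so they go largely with genotype here. With an indicator of over 50 CPM or their log2 sum as a covariate, 0 of all genes were called.

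The difference between the genotype effects of the routes, systemic minus topical, was tested as an interaction. It was called for 0 of 10 members by edgeR, DESeq2 and limma voom, against 0.250% of all genes in edgeR's test, with 2 members at an unadjusted p under 0.05 (14.0% of all genes). These were Egr2, at 0.97 (SE 0.38, adjusted p = 0.239), and Egr3, at -0.59 (SE 0.28, adjusted p = 0.348). The related factors thus had opposite signs, and neither passed the adjustment. In topical mice Egr2 ran from 22.9 to 53.4 CPM in controls and from 29.0 to 32.4 CPM (SD 1.58) in cKO mice. On library totals, without TMM factors, the cKO mice ran from 25.3 to 39.1 CPM (SD 6.36). Leaving out each of the 20 libraries in turn gave Egr2 interaction values of 0.73 to 1.12, and none of these passed the adjustment. Over the 15 other settings its value ran from 0.35 to 1.03, also without a call. With either satellite-like covariate, 0 of all genes were called for the interaction.

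Route of treatment, in contrast to genotype, gave calls among the members. Between controls, 3 of 10 members were higher in injected than in topically treated mice (Egr1, Egr3 and Btg2) and 0 were lower, where 18.3% of all genes were called, 10.2% higher and 8.16% lower. Without adjustment, 8 of 10 had a p under 0.05, against 32.9% of all genes. All 10 log2 fold changes were positive, with a median of 0.93 beside 0.00080 over all genes. These mice carried no Cre, so the comparison involves no deletion of Cyp11b1.

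Egr1, encoded by a gene of 2 merged exons (ENSMUSG00000038418, chr18:34859823-34864984, plus strand), rose 2.39-fold. It was at 479 ± 208 CPM (SD, n = 5) in topical controls, with the single values given above. In systemic control mice 1, 3, 4, 5 and 6 it was at 1412, 825, 1625, 1332 and 535 CPM. Systemic controls 1, 3, 4 and 5 exceeded every topical control, and systemic control 6 fell inside the topical range. The log2 difference was 1.26 (SE 0.37, adjusted p = 0.0214), and it was no longer called without topical control 5 (adjusted p = 0.0535) or systemic control 4 (adjusted p = 0.0605).

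Egr3 (ENSMUSG00000033730, chr14:70077203-70082614, plus strand) had the smallest adjusted p of the 10, although it was the least abundant. Topical controls 1, 3, 5, 6 and 7 had 10.7, 11.4, 11.5, 11.1 and 9.68 CPM, a spread of 0.734 CPM (SD). Systemic controls 1, 3, 4, 5 and 6 had 22.2, 20.1, 15.2, 21.9 and 20.2 CPM. The groups did not overlap, which held for 1 of 10 members and for 7.54% of all genes in this direction. Both the narrow topical spread and the gap depended on the scaling: on library totals the topical controls ran from 8.45 to 13.6 CPM (SD 1.99) and overlapped the systemic controls at 13.2 to 30.6 CPM, and the difference was not called (adjusted p = 0.0744). On the TMM scale, the log2 difference was 0.87 (SE 0.20, adjusted p = 0.00449) and stayed called without any 1 of the 10 libraries.

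Btg2 (ENSMUSG00000020423, chr1:134075170-134079120, minus strand), one of the more abundant members, rose 2.25-fold. Topical controls 1, 3, 5, 6 and 7 had 1638, 2369.7, 1674, 1324 and 1621 CPM and systemic controls 1, 3, 4, 5 and 6 had 3621, 2262, 4412, 6931 and 2164 CPM. Systemic controls 1, 4 and 5 exceeded every topical control, while systemic controls 3 and 6 were just below topical control 3. The log2 difference was 1.17 (SE 0.30, adjusted p = 0.0104) and also stayed called without any 1 of the 10 libraries.

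The other 7 members had positive differences that did not pass. Ier2, at 899 ± 423 CPM in topical and 1889 ± 823 CPM in systemic controls (SD, n = 5 each), differed by 1.07 (SE 0.38, adjusted p = 0.054). Nr4a1, the nuclear receptor, differed by 0.98 (SE 0.37, adjusted p = 0.0702): systemic controls 1, 4 and 5 had 4785, 5643 and 6279.6 CPM, above all topical controls (1202 to 2989.9 CPM), whereas systemic controls 3 and 6 had 1937 and 1667 CPM. The same division of the systemic controls, 1, 4 and 5 above 3 and 6, was seen in Egr1, Egr2, Ier2, Btg2, Zfp36 and Dusp1. Systemic controls 3 and 6 had the highest TMM factors of their group, 1.19 and 1.52 against 0.839 to 0.868. They also had the highest satellite-like sums, 11674 and 8412 CPM on library totals against 79.4 to 2004 CPM. The part of these in the division was not tested. Dusp1, the MAP kinase phosphatase, differed by 0.74 (SE 0.29, adjusted p = 0.0758), from 5162 ± 1275 to 8606 ± 2666 CPM. Zfp36, the mRNA-decay factor, differed by 0.83 (SE 0.36, adjusted p = 0.108), from 1144 ± 440.3 to 2035 ± 968 CPM. Socs3, the JAK inhibitor, had the second-largest estimate, 1.24 (SE 0.57, adjusted p = 0.132), with topical controls spread over 70.6 to 726 CPM and systemic controls over 204 to 1182 CPM. Egr2 (0.40 (SE 0.27, adjusted p = 0.318)) and Ier3 (0.22 (SE 0.43, adjusted p = 0.762)) had the smallest differences.

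In knockout mice, 4 of 10 members were higher in injected than in topically treated animals and 0 were lower: Egr1, Egr2, Ier2 and Btg2. Of all genes, 9.22% were called in this comparison, 5.19% higher and 4.02% lower. Without adjustment 5 of 10 had a p under 0.05 (23.1% of all genes). Of the log2 fold changes, 9 of 10 were positive, with a median of 0.87 beside -0.013 over all genes, and Ier3 was the exception at -0.19 (SE 0.43, adjusted p = 0.834). No mouse is shared between this comparison and that of the controls, and the test of the difference between them is the interaction above, which called none of the 10.

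Egr1 in systemic cKO mice 2, 4, 5, 6 and 7 was at 847, 1268, 1556, 651 and 1518 CPM, and the lowest of these lay above the highest topical cKO mouse (620.4 CPM). The log2 difference was 1.55 (SE 0.37, adjusted p = 0.00982), a 2.92-fold rise that stayed called without any 1 of the 10 libraries. Egr2 (ENSMUSG00000037868, chr10:67535475-67542188, plus strand) in topical cKO mice 2, 3, 4, 5 and 7 was at 29.0, 29.2, 32.4, 29.8 and 32.0 CPM, and every systemic cKO mouse was above these, on library totals too. Its log2 difference was 1.37 (SE 0.27, adjusted p = 0.00247), the smallest adjusted p of the 10 here, and it likewise stayed called without any 1 library.

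Btg2 was at 1539, 1323, 2005, 976 and 2099.8 CPM in topical cKO mice 2, 3, 4, 5 and 7 and at 3901, 3281, 2508, 2503 and 3338 CPM in systemic cKO mice 2, 4, 5, 6 and 7. The groups did not overlap, as for Egr1 and Egr2: 3 of 10 members against 4.07% of all genes in this direction. The log2 difference of Btg2 was 0.97 (SE 0.30, adjusted p = 0.0463). Ier2 (ENSMUSG00000053560, chr8:84661331-84662852, minus strand) was at 904, 586, 1057, 489.8 and 1066 CPM in topical and 1420.1, 2509, 2324, 957 and 2496 CPM in systemic cKO mice, in the same order, with systemic cKO 6 alone inside the topical range. Its log2 difference was 1.24 (SE 0.38, adjusted p = 0.0445). Both calls were close to the threshold: Ier2 was lost without topical cKO 2, 3, 4, 5 or 7 or systemic cKO 4, 5 or 7, and Btg2 was lost without topical cKO 2, 3 or 5 or any of the 5 systemic cKO mice, with the highest adjusted p at 0.117 and 0.125.

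The other members did not pass in knockout mice. Nr4a1 ran from 1433 to 3541 CPM in topical and from 2424 to 4659 CPM in systemic cKO mice and differed by 0.78 (SE 0.37, adjusted p = 0.216). Socs3 differed by 1.08 (SE 0.57, adjusted p = 0.265), Zfp36 by 0.48 (SE 0.36, adjusted p = 0.445), Dusp1 by 0.40 (SE 0.29, adjusted p = 0.431) and Egr3 by 0.29 (SE 0.20, adjusted p = 0.402). Egr3 was at 11.1, 15.2, 10.5, 16.9 and 8.36 CPM in topical cKO mice 2, 3, 4, 5 and 7 and at 13.9, 8.80, 14.9, 17.9 and 21.1 CPM in systemic cKO mice 2, 4, 5, 6 and 7. These groups overlapped widely, unlike those of the controls.

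**Figure D3:**
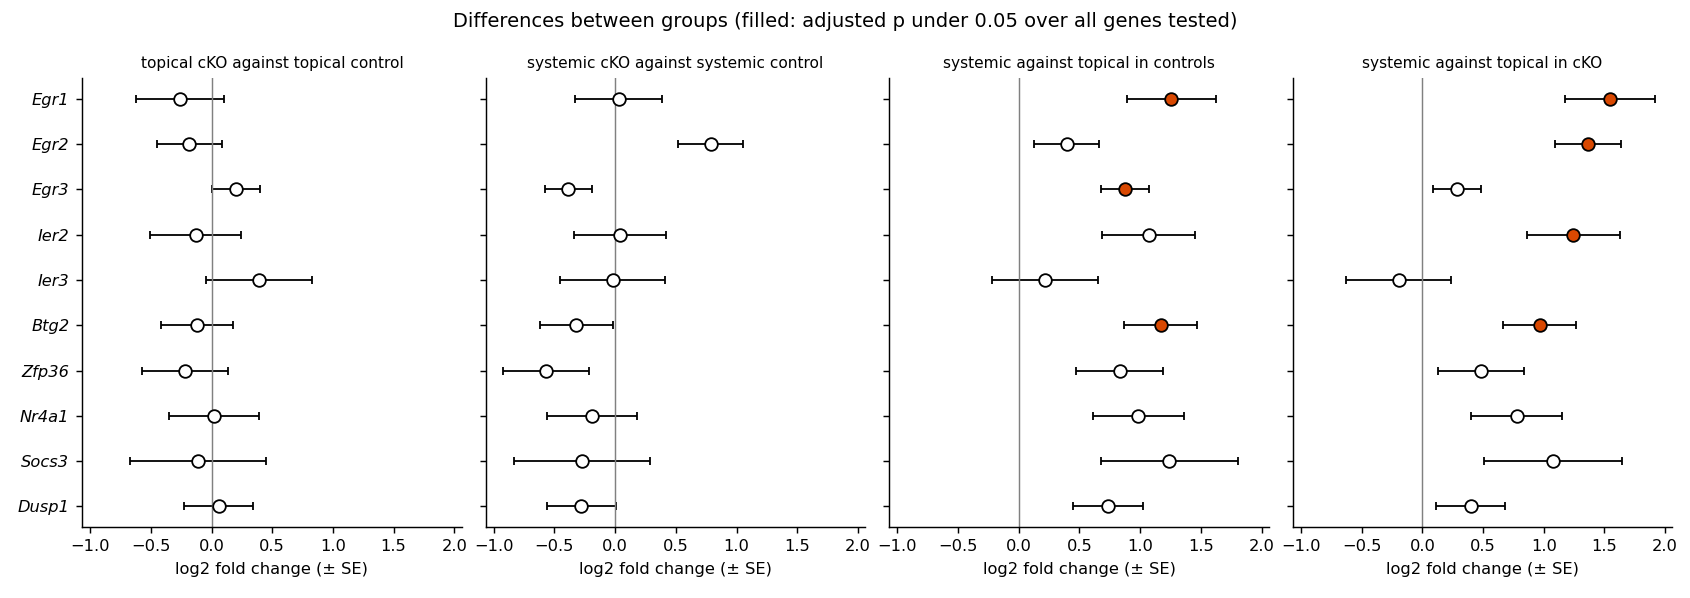
Log2 fold change of each gene with its SE in 4 comparisons, from edgeR's fit over all 20 libraries; filled points have an adjusted p under 0.05 over all genes tested. Filled points occur in the route panels, for Egr1, Egr3 and Btg2 in controls and for Egr1, Egr2, Ier2 and Btg2 in cKO mice.

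The number of members called between routes depended on how libraries were scaled. Mean deviation of the 10 genes from their group mean fell with the TMM factor of the library (r = -0.775 over 20 libraries, a description; the factor also enters the scaled level). On library totals alone, 6 members were called higher between controls (Egr1, Ier2, Btg2, Zfp36, Nr4a1 and Dusp1), where 7.73% of all genes were called, 3.98% higher. Egr3 was not among them, and 4 members, Egr1, Ier2, Btg2 and Dusp1, had groups that did not overlap (3.68% of all genes in that direction). The estimates moved little, for example 0.74 for Dusp1, whose adjusted p became 0.0026. Between cKO groups the same 4 members were called on both scales, on library totals beside 4.35% of all genes, 2.29% higher. Library totals shifted the median of all genes by over 0.1 only in the systemic genotype comparison, to -0.11, and in the interaction, to -0.16, and called 0 members in both, beside 0.410% and 0.0322% of all genes.

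Other transcripts moved with the route as well. The summed level of 10 heat shock genes ran from 4390.4 to 7636 CPM over the topical libraries and from 7271 to 15800.5 CPM over the systemic ones, and that of 8 AP-1 genes from 15755 to 29289 CPM and from 21305 to 48116 CPM. With the log2 heat shock sum as a covariate, 1 member was called between controls (Egr3, 1.11, adjusted p = 0.00969, 22.1% of all genes) and 0 between cKO groups (9.72% of all genes), and Egr1 was at -0.072 between controls. Over all 16 other settings, this one included, the lowest estimates between cKO groups were 0.96 for Egr2, 0.42 for Egr1, 0.17 for Btg2 and 0.032 for Ier2. With the log2 AP-1 sum, 1 was called between controls (Egr3, 1.15, adjusted p = 0.000563; 36.1% of all genes) and 1 between cKO groups (Egr2, 0.96, adjusted p = 0.0348; 24.0% of all genes). These sums were measured in the same libraries as the members. The summed level of 10 immune cell genes, 2 of which passed the filter, ran from 5.97 to 16.5 CPM in topical and from 17.2 to 31.5 CPM in systemic cKO mice, which did not overlap, and from 6.48 to 14.98 CPM and 8.86 to 25.5 CPM in the controls. That of 5 erythroid genes, 1 of which passed, ran from 0.900 to 1.84 CPM in topical and from 3.52 to 7.62 CPM in systemic cKO mice. In the controls it ran from 0.841 to 3.28 CPM in topical and from 1.47 to 4.18 CPM in systemic mice, which overlapped. The part of these in the members' differences was not tested.

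The satellite-like transcripts divide the controls exactly as the route does, so in controls the 2 cannot be told apart, and with an indicator of over 50 CPM as a covariate 0 members were called there, as were 0.00805% of all genes. Over all 16 other settings, this one included, the lowest estimates in controls were 0.85 for Egr3, 0.16 for Btg2 and -0.072 for Egr1. For Egr3 the call was thus lost here while the estimate stayed near the reported 0.87. In cKO mice a single library, systemic cKO 2, had over 50 CPM. Without it the log2 differences were 1.65 for Egr1, 1.49 for Egr2 and 1.34 for Ier2, all still called, and 0.87 for Btg2 with an adjusted p of 0.1.

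**Figure D4:**
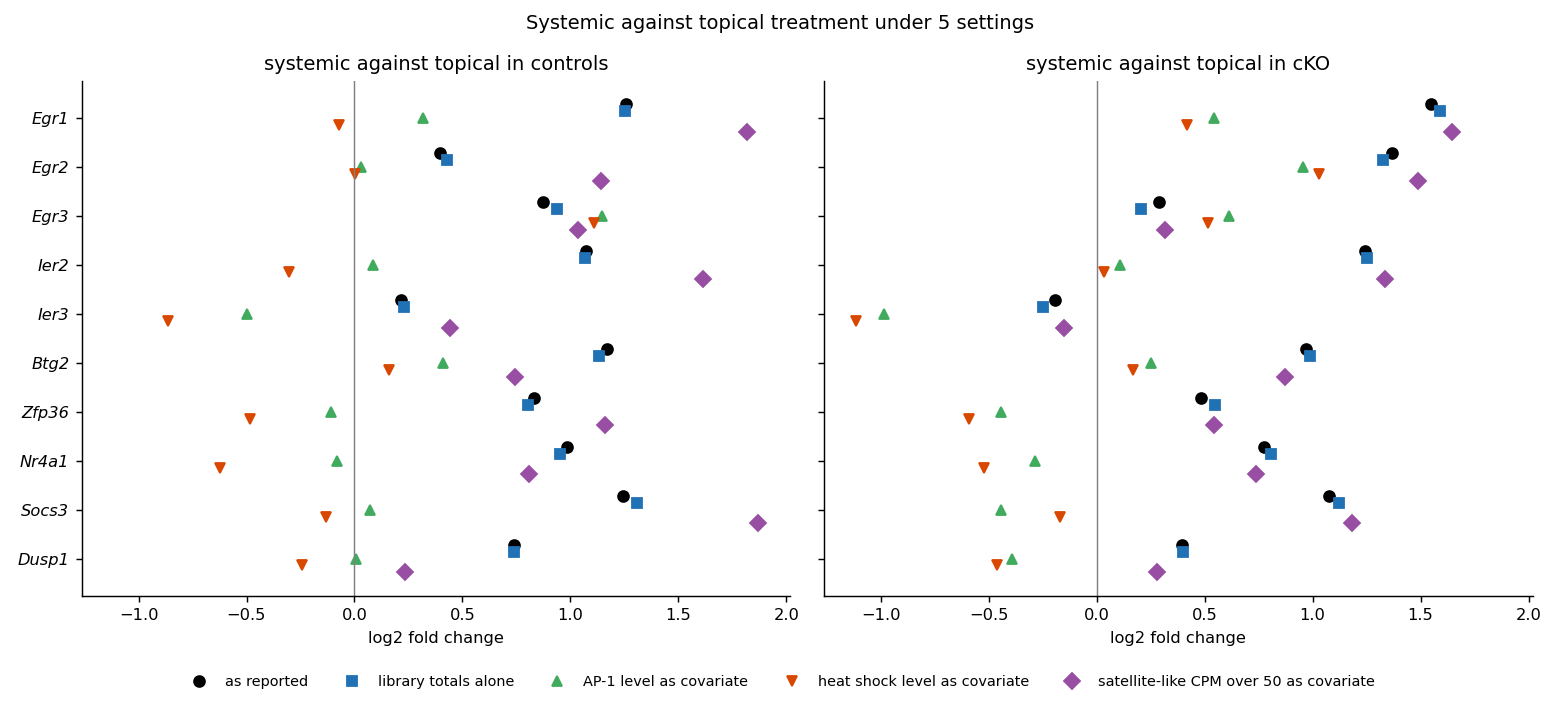
Log2 fold change of systemic against topical treatment for each gene in controls and in cKO mice, under the reported fit and 4 other settings. Library totals leave the points nearly in place, the AP-1 and heat shock covariates move most of them toward or below 0, and Egr3 in controls lies between 0.87 and 1.15 under all 5.

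The members differed in how far mice of the same group lay apart. The SD of log2 CPM within groups was highest for Socs3 (1.02) and Ier3 (0.77) and lowest for Egr3 (0.34), beside a median of 0.35 over all genes tested and 0.29 over genes at 5 CPM or more. Of the members, 9 lay above the first of these and Egr3 just below it. On library totals it was again highest for Socs3 (0.84) and Ier3 (0.75), but lowest for Dusp1 (0.21) and Btg2 (0.31), both below the median of 0.38 over genes at 5 CPM or more on that scale. In topical control 3 all 10 genes were above their group mean, by 0.77 on average on the log2 scale. In systemic control 6, 9 of the 10 were below theirs, by 0.84 on average over the 10. On library totals these averages were 0.54 and -0.28.

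**Figure D5:**
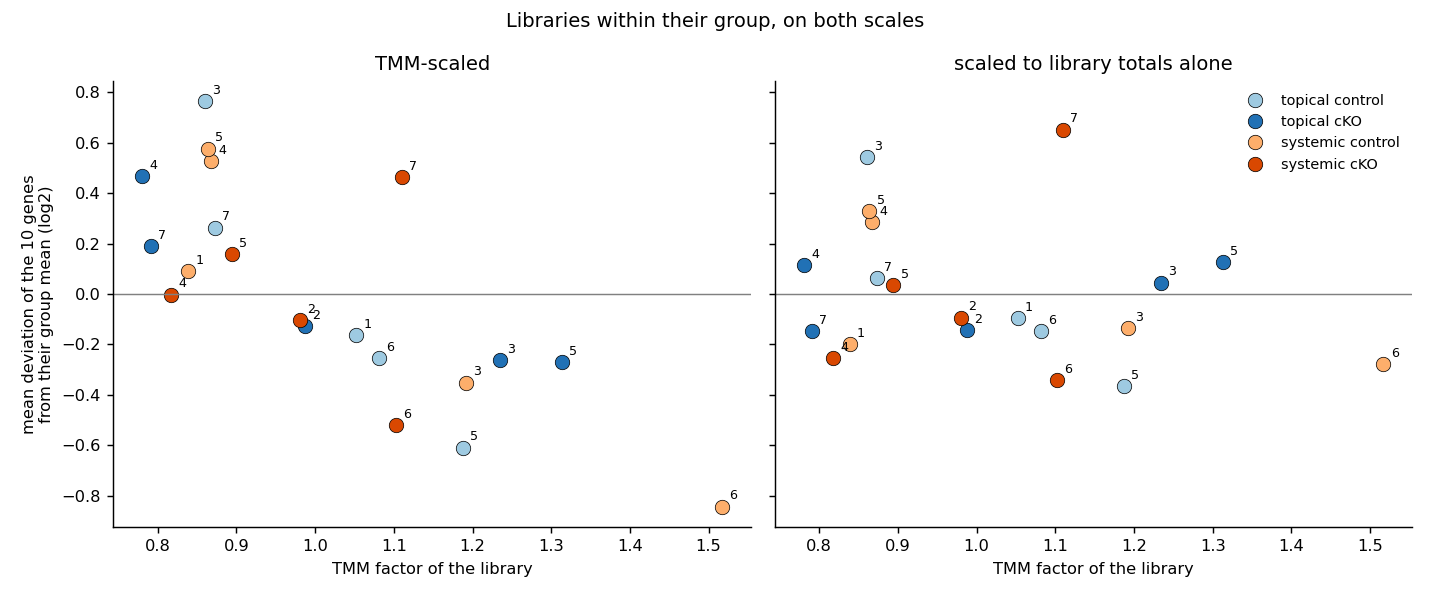
Mean deviation of the 10 genes from their group mean (log2, y axis) against the TMM factor of the library (x axis), with mouse numbers, on TMM-scaled levels at left and on library totals at right. On the left, low factors go with high deviations; on the right, systemic cKO 7 and topical control 3 are highest.

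After the group means were subtracted, 38 of the 45 pairs of members correlated positively over the 20 libraries, with a median Pearson r of 0.64; on library totals 37 did, with a median of 0.34. These are descriptions, since all genes of a library share its depth and its scaling. Egr1 and Ier2 were the closest pair, at 0.94 (0.88 on library totals), and Egr3 and Dusp1 the most opposed, at -0.56 (-0.42). Over all genes tested, those most like Egr1 were H2aw (0.96), Trim17 (0.95) and Ier2. The nearest gene was Ccnl1 for Egr2 (0.85), Ckap4 for Egr3 (0.91), Egr1 for Ier2, Tgif1 for Ier3 (0.92), Dnajb1 for Btg2 (0.89), Mt1 for Zfp36 (0.88), Ripk4 for Nr4a1 (0.91), Il4ra for Socs3 (0.91) and Fos for Dusp1 (0.95). On library totals the value for Dusp1 and Fos was 0.75, and that for Egr3 and Ckap4 0.95.

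Genes that act above or beside the members were followed as lists, whose counts are to be read beside the shares of all genes tested. Between controls by route 10.2% of all genes were called higher and 8.16% lower, and between cKO groups 5.19% and 4.02%. On library totals 7.73% and 4.35% were called in either direction. For systemic genotype 1.89% were called and for the interaction 0.250%. Of 10 genes upstream of EGR factors or in feedback on them, 1 was higher and 1 lower between controls by route. Srf, the factor that binds the CArG box, was higher by 1.56 (SE 0.47, adjusted p = 0.0254), and Elk1, one of its ETS partners, was lower, at -0.92 (SE 0.17, adjusted p = 0.00129). The list had a median of -0.32, with 2 of 10 positive. On library totals neither was called. In cKO mice 0 of the 10 were called, the nearest being Map2k1, a kinase of the MAP kinase cascade, at -0.65 (SE 0.22, adjusted p = 0.0724), which was called lower on library totals (-0.65, adjusted p = 0.0165), and Elk3 at -1.30 (SE 0.46, adjusted p = 0.0802). Between genotypes, Elk1 was higher in systemic cKO than in systemic controls, by 0.74 (SE 0.17, adjusted p = 0.0307), again not on library totals. This comparison and that of the controls by route share the 5 systemic controls.

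Of 12 genes of the cytokine receptor and JAK-STAT axis that Socs3 restrains, 2 were higher and 2 lower between controls by route, beside 10.2% and 8.16% of all genes. Osmr, the oncostatin M receptor, was higher by 0.87 (SE 0.20, adjusted p = 0.00451) and Tyk2, a JAK kinase, by 0.60 (SE 0.17, adjusted p = 0.0174). Il6ra, the interleukin-6 receptor, was lower, at -1.41 (adjusted p = 0.000116) and Lifr, the receptor for leukemia inhibitory factor, at -0.58 (adjusted p = 0.0194). In cKO mice Jak1 was higher (0.57 (SE 0.14, adjusted p = 0.0132)) and Lifr lower (-0.63 (SE 0.17, adjusted p = 0.0192)). Il6ra was higher in systemic cKO than in systemic controls by 1.22 (SE 0.20, adjusted p = 0.00187). This value and its route difference in controls share the same 5 systemic controls. On library totals the list had 1 gene higher and 1 lower between controls and 0 called between cKO groups.

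Of 7 cytokine mRNAs that Zfp36 is known to bind, 4 passed the filter on low counts, and 0 were higher in either route comparison. Tnf was lower in systemic controls (-1.79 (SE 0.55, adjusted p = 0.0276)), and Cxcl1, a neutrophil attractant, was lower in systemic cKO mice (-1.46 (SE 0.45, adjusted p = 0.0466)), each against its topical group. On library totals neither was called. The 3 kinase genes whose products Dusp1 inactivates gave 0 calls in any comparison; Mapk8 was nearest, at 1.12 (SE 0.41, adjusted p = 0.0608) between controls. Of 10 glucocorticoid receptor targets outside the members, Per1 was higher (0.99 (SE 0.29, adjusted p = 0.0219)) and Fkbp5 lower (-1.39 (SE 0.43, adjusted p = 0.0275)) between controls by route, Fkbp5 not on library totals, and 0 were called between genotypes or between cKO groups.

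Of 35 other immediate or delayed early genes, 8 were higher and 2 lower between controls by route (10.2% and 8.16% of all genes), with a median of 0.31. On library totals 8 were higher and 2 lower as well, with Klf6 and Zfp36l1 called in place of Dusp5 and Tiparp. The smallest adjusted p-values among those higher were of Plk2 (1.49 (SE 0.25, adjusted p = 0.000498)), Ccn1 (1.74 (SE 0.38, adjusted p = 0.00362)) and Arc (1.50 (SE 0.40, adjusted p = 0.013)). The 2 lower were Csrnp1 (-2.66 (SE 0.39, adjusted p = 0.000165)) and Btg1 (-0.83 (SE 0.24, adjusted p = 0.0188)), a relative of Btg2. In cKO mice 2 were higher, Plk2 (0.85) and Ccn1 (1.18), and 2 lower, Dusp4 (-1.60) and Btg1 (-0.75); on library totals 0 were higher and 2 lower. Csrnp1 was the single gene of this list called between genotypes: it was higher in systemic cKO than in systemic controls by 2.63 (SE 0.39, adjusted p = 0.00121), and the interaction was 2.62 (SE 0.53, adjusted p = 0.0334). These values and its route difference in controls share the same 5 systemic controls, so they are not separate results.

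Among 8 AP-1 genes, 4 were higher between controls by route and 3 between cKO groups, beside 10.2% and 5.19% of all genes. Fos was called in both, at 0.83 (SE 0.27, adjusted p = 0.0388) and 0.92 (SE 0.28, adjusted p = 0.0386). Atf3 was called between controls, at 0.86 (adjusted p = 0.0347), and not between cKO groups, at 0.84 (adjusted p = 0.0621), and Jun, at -0.066 and 0.28, was called in neither. On library totals 3 were higher in each comparison, with Junb gained and Fosl1 and Fosl2 lost between controls, and Atf3 gained and Fosl2 lost between cKO groups. Fosb was higher in systemic cKO than in systemic controls by 1.71 (SE 0.31, adjusted p = 0.00521). Of the 10 heat shock genes, 4 were higher and 2 lower between controls by route, led by Dnajb1, a co-chaperone, at 1.79 (SE 0.32, adjusted p = 0.000713) and Hspe1, a mitochondrial chaperonin subunit, at -0.78 (SE 0.18, adjusted p = 0.00559), and 2 were higher between cKO groups. On library totals 2 were higher and 2 lower between controls, and the same 2, Dnajb1 and Hspb1, were higher between cKO groups. In the topical genotype comparison 0 genes of any of these lists were called by edgeR's test, at both scalings, with 2 of the 35 other early genes at an unadjusted p under 0.05.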

How the data were processed

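The authors deposited whole-number counts per gene, 1 column per mouse, with no normalization; per the submitters' processing notes, STAR, featureCounts and GRCm38/mm10 were used, with versions, annotation and strand setting not given in the sources used here. SmartSeq II libraries hold no molecular identifiers that the labels name, so p-values rest on the spread between mice. The counts of all 20 libraries were fitted with edgeR 4.0.16 in R 4.3.3: TMM factors, filterByExpr (minimum count 10, minimum total count 15), 1 coefficient per group, robust quasi-likelihood F tests, two-sided, Benjamini-Hochberg adjustment over 12424 genes, called under 0.05. SE is the absolute log2 fold change divided by the square root of F. The fitting steps were also run on simulated counts in which 200 genes differed in systemic controls. All simulated libraries otherwise shared the same composition, so this run does not test the scaling. Correlations used log2 CPM with a prior count of 2. Exon lengths are from GENCODE M21 (basic set). All members are named; of each list, up to 3 called genes per direction with the smallest adjusted p, or else the nearest. Members and lists were chosen with earlier results of these data known. Alternatives used DESeq2 1.42.0 and limma 3.58.1.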

Additional observations from a re-analysis of the deposited data

Results flagged for a closer look

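Each of the 10 genes was checked in each of the 4 groups of 5 mice for a library far from the others, by Dixon's ratio of the gap to the range. Of 40 such checks, 1 passed the critical value: Zfp36 in systemic cKO 7, at 2131 CPM, where the other 4 mice of the group lay between 1120.5 and 1262 CPM, a ratio of 0.859. Chance alone gives about 1 such library in 20 checks. Without this library the route difference of Zfp36 in cKO mice was 0.27 on the log2 scale, against 0.48 with it, and neither was called.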

How the results depend on the processing

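Of the alternatives run, none called a member in the topical genotype comparison or the interaction, and 1 did in the systemic genotype comparison: the mitochondrial percent as a covariate called 2 (10.6% of all genes). Between controls by route, members called numbered 3 in the reported fit (18.3% of all genes tested), 6 with the DESeq2 Wald test (19.3%), 5 with limma voom (28.0%), 6 among genes with a mean of 5 CPM or more (23.6%), 6 on library totals (7.73%), 6 with sex (19.3%) and 7 with the mitochondrial percent as a covariate (28.1%), 1 with the heat shock level (22.1%), 1 with the AP-1 level (36.1%), and 0 with either satellite covariate (0.00805% and 0.982%). They numbered 2 to 7 when each library was left out, 5 without topical control 3 and 7 without systemic control 6. Between cKO groups they numbered 4 in the reported fit (9.22%), 0 with the heat shock level (9.72%) and 1 with the AP-1 level (24.0%), and 2 to 3 when each library was left out, with 2 without topical cKO 2, 3 or 5 or systemic cKO 4, 5 or 7. The cause of these shifts was not tested. The covariates for satellite-like transcripts, sex and mitochondrial percent and the scaling to library totals were chosen after seeing the data. Sex was assigned here from the summed Y-linked transcripts, with over 5 CPM taken as male. By this rule 3 of 5 mice were male in each control group and 2 of 5 in each cKO group.

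Signs changed in the following log2 fold changes, none of which was called under the reported fit except where said. With the heat shock level they were Ier2 0.089 and Socs3 0.15 for topical genotype, Ier3 0.31, Nr4a1 0.28 and Socs3 0.11 for systemic genotype, Btg2 0.0093 and Nr4a1 0.10 for the interaction, Egr1 -0.072 (called in the reported fit), Ier2 -0.30, Ier3 -0.86, Zfp36 -0.48, Nr4a1 -0.62, Socs3 -0.13 and Dusp1 -0.24 for route in controls, and Zfp36 -0.59, Nr4a1 -0.52, Socs3 -0.17 and Dusp1 -0.46 for route in cKO. With the AP-1 level they were Ier2 0.092 and Socs3 0.30 for topical genotype, Ier3 0.14 for systemic genotype, Ier3 -0.50, Zfp36 -0.11 and Nr4a1 -0.081 for route in controls, and Zfp36 -0.44, Nr4a1 -0.28, Socs3 -0.44 and Dusp1 -0.39 for route in cKO. With sex they were Nr4a1 -0.042 and Dusp1 -0.016 for topical and Egr1 -0.076 and Ier2 -0.017 for systemic genotype. With the mitochondrial percent they were Ier2 0.033 and Socs3 0.16 for topical genotype, Ier3 0.22, Nr4a1 0.27 and Socs3 0.094 for systemic genotype and Nr4a1 0.053 for the interaction. For systemic genotype they were Egr1 -0.050, Ier2 -0.066 and Ier3 0.10 with limma voom, Egr1 -0.014 and Ier2 -0.040 with the log2 library total, and Ier3 0.034 on library totals. With satellite-like CPM over 50 they were Egr1 -0.44, Ier2 -0.41, Btg2 0.0085 and Dusp1 0.11 for systemic genotype and Egr1 -0.17, Ier2 -0.28, Btg2 0.13 and Dusp1 0.047 for the interaction, and with its log2 sum Egr1 -0.27 and Ier2 -0.29, and Egr1 -0.060 and Ier2 -0.21. Leaving out 1 library at a time gave, for topical genotype, Egr2 -0.30 to 0.024, Ier2 -0.35 to 0.13, Btg2 -0.24 to 0.022, Zfp36 -0.40 to 0.019, Nr4a1 -0.26 to 0.19, Socs3 -0.52 to 0.63 and Dusp1 -0.091 to 0.19, for systemic genotype, Egr1 -0.15 to 0.19, Ier2 -0.13 to 0.25, Ier3 -0.27 to 0.28, Nr4a1 -0.39 to 0.020 and Socs3 -0.50 to 0.049, for the interaction, Ier2 -0.093 to 0.39, Btg2 -0.35 to 0.12, Nr4a1 -0.41 to 0.072 and Socs3 -0.91 to 0.24, and for route in controls, Ier3 -0.082 to 0.50.

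Numbers in the sample names were tried as a block. Among 20 same-numbered pairs of libraries, 9 had deviations that correlated at over 0.1 (-0.31 to 0.51). Pairs with different numbers were not compared, so whether the numbers pair the mice cannot be told from this. With the replicate block, members called numbered 0 in each genotype comparison and the interaction, 3 between controls (17.6% of all genes tested) and 3 between cKO groups (7.54%), and signs changed for Ier3 (-0.012), Nr4a1 (-0.34) and Dusp1 (-0.21) in topical genotype, Ier2 (-0.031) in systemic genotype, Nr4a1 (0.090) and Socs3 (0.17) in the interaction and Ier3 (0.0033) for route in cKO. 

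Counts over all genes moved by over 1.5 times in the following settings. For topical genotype (16 called) they were 42 with DESeq2, 9 with the replicate block, 10 on library totals and 10 to 19 when each library was left out. For systemic genotype (235) they were 546 with DESeq2, 35 in a fit of only the libraries compared, 368 and 450 with the heat shock and AP-1 levels, 0 with either satellite covariate, 51 on library totals, 1320 with the mitochondrial percent, and 81 to 788 when each library was left out, 788 without systemic cKO 2. For the interaction (31) they were 316 with DESeq2, 218 with limma voom, 49 among genes with a mean of 5 CPM or more, 49 with sex, 0 with the replicate block or a satellite covariate, 55 and 127 with the heat shock and AP-1 levels, 4 on library totals, 364 with the mitochondrial percent, and 16 to 470 when each library was left out. For route in controls (2277) they were 3475 with limma voom, 4488 with the AP-1 level, 3497 with the mitochondrial percent, 960 on library totals, 1 and 122 with the satellite covariates, and 1463 without systemic control 3. For route in cKO (1145) they were 2983 with the AP-1 level, 541 on library totals and 746 without topical cKO 5. Of the calls for systemic genotype 169 were higher and 66 lower, against 51 and 0 on library totals, and of those for the interaction 23 and 8, against 4 and 0.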
